A study of Mus musculus with 4 samples.

Results

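The genes described here build, cut and crosslink the extracellular matrix. They were taken as every array probe whose platform gene symbol belongs to the numbered Mmp, Adam, Adamts, Timp, Loxl or Plod genes, or is Lox. The rule found 68 probes for 64 genes among the 22702 probes and 15096 named genes of a mouse oligonucleotide array: 20 Mmp, 27 Adam, 8 Adamts, 4 Timp, 6 Lox and Loxl and 3 Plod probes. The rule reads gene symbols and no measured value, but it was set with earlier results of these data known.

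The arrays compared metanephric mesenchyme (MM), the mesenchyme that gives rise to the nephrons of the permanent kidney, with intermediate mesoderm (IM), the mesodermal strip from which the urogenital organs form. Both tissues were dissected from mouse embryos labelled 10.5 days post coitum (dpc), from both sexes, and the labels name no strain, genotype or treatment and do not say how many embryos were pooled. Each of the 4 arrays carried both tissues, with MM as channel 1 and IM as channel 2 on arrays 1 and 2, and the channels exchanged on arrays 3 and 4, where the labels also cross the nouns of the tissue names. Each probe has 1 log2 ratio of MM over IM per array, and positive values mean higher in MM. This direction is likely from the titles and the channel order, but no label names the dye used for either channel. Ratios of bulk tissue do not give a level in either tissue, and fewer cells of a type and less RNA per cell cannot be told apart.

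Matrix metalloproteinases (Mmp) are zinc proteases, secreted or held at the membrane, that cut collagens and other matrix proteins. Adam proteins are membrane proteins that, where catalytically active, release the outer parts of other membrane proteins. Adamts proteins are secreted relatives that cut proteoglycans or trim procollagens. Tissue inhibitors of metalloproteinases (Timp) block these enzymes, lysyl hydroxylases (Plod) modify lysines of new collagen, and lysyl oxidases (Lox and Loxl) use such lysines to crosslink collagen and elastin. In the developing kidney this machinery is known for its part in remodelling the matrix around the branching ureteric bud.

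Arrays 1 and 2 held 66 and 67 values for the 68 probes, none at the lowest value of the table. Arrays 3 and 4 held 47 and 56 values, of which 5 and 11 stood at that lowest value, -6.64. It is the log2 of a ratio of 0.01, was shared by every array and is treated as a floor, so a probe at it has no measured fold. All 4 values were present for 42 member probes (61.8%, against 62.5% of all probes), and these 42 were tested; 3 of them had values at the floor. The labelled tissue was checked against 9 markers of kidney mesenchyme, of which 8 were tested. In both fits 4 were higher in MM, namely Six2 (3.00), Hoxa11 (1.92), Gdnf (1.92) and Osr1 (0.44), and Wt1 (-1.57) was lower. Eya1 (0.35), Hoxd11 (0.10) and Pax2 (0.09) did not pass, and Sall1 was not tested.

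Calls come from limma, fitted to all 14184 probes with 4 values, with an orientation term for the channel exchange and p-values adjusted by the Benjamini-Hochberg method at a threshold of 0.05. In this fit the error comes from the likeness of arrays of one orientation, and 61.9% of all tested probes passed. Probes that also passed in a fit without the orientation term, where the error holds the difference between orientations, are said to pass in both fits. Of all tested probes, 28.0% did so, 13.6% higher and 14.4% lower in MM. Errors are SDs over the 4 arrays. Nothing in the labels tells whether the same RNA was hybridised more than once, so the p-values cover the scatter among 4 arrays, and that scatter may be purely technical.

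More of the genes passed as lower than as higher in MM. In both fits 14 of the 42 tested probes passed, 2 higher (4.76%) and 12 lower (28.6%), beside 13.6% and 14.4% of all tested probes. The higher probes were those of the secreted protease Adamts1 and 1 of 2 probes for Adamts9. The lower ones were Loxl1, Mmp23, Timp1, Adam9, Adam19, Adam8, Adam1a, Plod2, Mmp14, Loxl4, and 1 probe each of Loxl2 and Adamts9. With the orientation term alone 8 were higher and 23 lower, 3 of the 23 at the floor, beside 23.8% higher and 38.1% lower of all tested probes. The median of the tested probes was -0.24, against -0.08 over all tested probes, and no test was made of that difference. With 1 array left out, 1, 2, 1 and 1 probes were higher and 0, 3, 1 and 0 lower in both fits without arrays 1, 2, 3 and 4, while the count over all probes dropped to between 1216 and 1665, against 3968. With each orientation averaged to 1 value, limma called 0 of the 42 (3 had an unadjusted p under 0.05) and 0 of all probes.

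**Figure D1:**
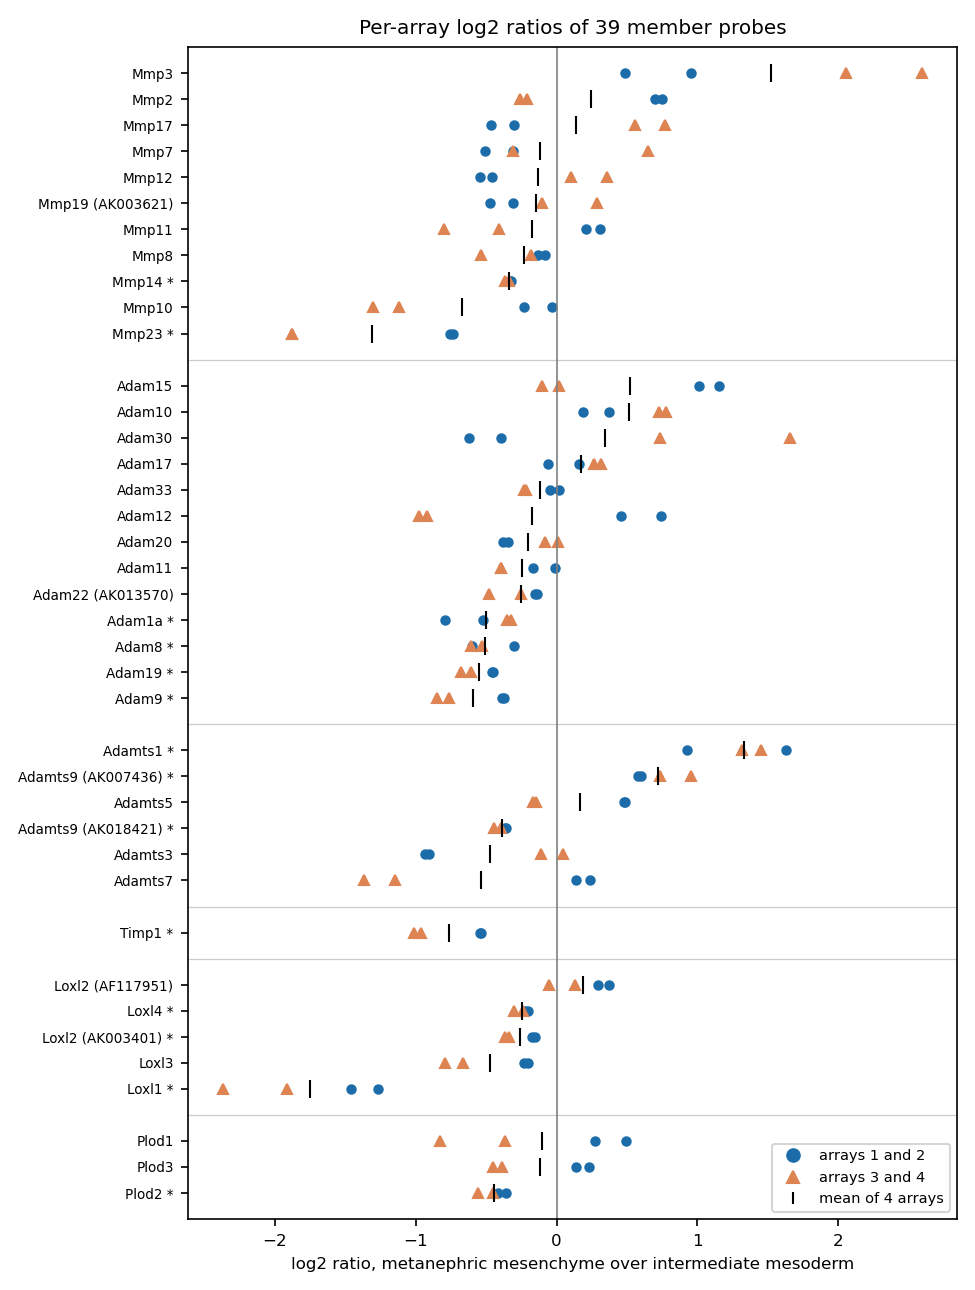
Log2 ratios of MM over IM (x axis) of the 39 member probes with 4 values above the floor, by family and ordered by mean. Circles are arrays 1 and 2, triangles are arrays 3 and 4, black bars are means of 4 arrays, and an asterisk marks a probe that passed in both fits. Loxl1 and Mmp23 lie far left with all 4 arrays below 0, and Adamts1 lies right with all 4 above 0, while Adam12, Adamts7, Mmp2 and Plod1 have the orientations on opposite sides of 0.

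Among the crosslinking enzymes, Loxl1 stood out. Loxl1, the lysyl oxidase needed to maintain elastic fibres, read -1.46, -1.27, -2.37 and -1.91 on arrays 1 to 4. Every array was below -1, and the mean of -1.75 ± 0.49 (n = 4) corresponds to a 3.37-fold lower ratio (SE 0.0993, limma adjusted p = 0.00168, and 0.0109 without the orientation term). Of the 13191 probes above the floor on 4 arrays, only 10 had a lower mean. The call of Loxl1 in both fits was lost without array 1 or array 4. Loxl4 was lower by less but evenly, at -0.22, -0.20, -0.24 and -0.30, with a mean of -0.24 ± 0.04 (limma adjusted p = 0.00689, and 0.0253 without the term).

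The other lysyl oxidases were less clear. Loxl3 was below 0 on every array (-0.23, -0.20, -0.79 and -0.66) but passed only with the orientation term (limma adjusted p = 0.0028, and 0.0785 without). The 2 probes of Loxl2, an enzyme that acts on the collagen of basement membranes, disagreed. The probe annotated to AK003401 had -0.16, -0.17, -0.37 and -0.33 and passed as lower in both fits, narrowly without the term (limma adjusted p = 0.0496). The one annotated to AF117951 had 0.30, 0.37, -0.05 and 0.13 and passed as higher with the term alone (limma adjusted p = 0.0381), a call lost whichever array was left out (0.0582 to 0.185). No direction is therefore given for Loxl2. Lox, the founding enzyme of the family, had -0.06 and -0.35 on arrays 1 and 2, the floor on array 3 and no value on array 4, and was not tested. Over the 5 tested Lox and Loxl probes, 4 were lower (80%) and 1 higher (20%) with the orientation term, and the median was -0.26. In both fits 3 were lower (60%) and 0 higher. Among all tested probes 38.1% were lower and 23.8% higher with the term, and 14.4% and 13.6% in both fits.

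Of the lysyl hydroxylases, Plod2 was lower in MM. Plod2, which hydroxylates the collagen telopeptides that give rise to the most stable crosslinks, read -0.42, -0.36, -0.45 and -0.56, and the mean of -0.45 ± 0.08 passed in both fits (1.36-fold lower, limma adjusted p = 0.0029, and 0.01 without the term). Plod1 read 0.49 and 0.28 on arrays 1 and 2 but -0.83 and -0.37 on arrays 3 and 4. Plod3, which also adds sugars to hydroxylysine, read 0.14 and 0.23, then -0.38 and -0.45. Both were positive in one orientation and negative in the other, and neither passed (limma adjusted p = 0.428 and 0.0555, with 95% intervals of the mean of -0.42 to 0.20 and -0.22 to -0.01). The 3 Plod probes were the only family with 4 values above the floor for every probe.

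Timp1 was the only inhibitor of its family that could be tested, and it was lower in MM. Timp1 read -0.54, -0.55, -0.96 and -1.01 on arrays 1 to 4, all below 0. Its mean of -0.76 ± 0.26 is 1.70-fold lower (SE 0.0269, limma adjusted p = 0.000818, and 0.0186 without the term), and 351 of the 13191 probes had a lower mean. Timp2, which with membrane-anchored Mmp14 helps to activate Mmp2, had 1.24 and -0.30 on arrays 1 and 2, no value on array 3 and the floor on array 4. Timp3, the inhibitor that binds to the matrix, had 2.88 and 0.43, then likewise no value and the floor. Timp4 had -2.51 and -2.26 on arrays 1 and 2 alone. The arrays that did measure these 3 genes thus gave them different signs, and none has a call.

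Of 11 tested Mmp probes, 2 (18.2%) passed as lower in both fits and 0 as higher, beside 14.4% and 13.6% of all tested probes. With the orientation term 3 were lower (27.3%, against 38.1% of all tested probes) and 2 higher (18.2%, against 23.8%). The other 6 did not pass. The median of the 11 was -0.15. Mmp23, a membrane-tethered enzyme known from human reproductive organs, read -0.76, -0.73, -1.88 and -1.88. All 4 arrays were low, and the mean of -1.31 ± 0.65 is 2.48-fold lower (limma adjusted p = 0.000357, and 0.0417 without the term). Mmp14, the membrane collagenase that activates Mmp2, was the most even member, at -0.32, -0.33, -0.34 and -0.37. Its difference was small, with a mean of -0.34 ± 0.02 or 1.27-fold lower, and passed in both fits (limma adjusted p = 0.00278 and 0.00982).

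The gelatinases, which degrade denatured collagen and the type IV collagen of basement membranes, gave no settled difference. Mmp2 read 0.75 and 0.70 on arrays 1 and 2 but -0.26 and -0.21 on arrays 3 and 4. Its mean of 0.24 ± 0.55 passed with the orientation term (limma adjusted p = 0.00674) and not without it (adjusted p = 0.537), and without array 4 it was also lost (adjusted p = 0.0511). Mmp9 had -0.17, -0.48 and 0.26 on arrays 1 to 3 and no value on array 4. Of the other membrane-anchored enzymes, Mmp17 changed sign between orientations (-0.47, -0.30, 0.77 and 0.55, limma adjusted p = 0.124). Mmp16, another activator of Mmp2, had 2.64, 0.67 and -0.18 on arrays 1, 2 and 4, and Mmp24 had 1.10, 1.93 and 2.09 on arrays 2 to 4, all positive but with 1 array missing. Mmp11, a stromelysin of mesenchyme undergoing remodelling, read 0.31, 0.21, -0.80 and -0.41 and did not pass (limma adjusted p = 0.16). The 2 probes of Mmp19 did not settle a direction, with -0.31, -0.47, 0.29 and -0.10 for one (limma adjusted p = 0.224) and -0.13 and -0.19 on arrays 1 and 2 alone for the other. Mmp28 had -0.76, 0.62 and 0.90 on arrays 1, 2 and 4.

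In the RefSeq gene order of GRCm38.p6, 9 Mmp genes of the array lie next to one another on chromosome 9, in the order Mmp13, Mmp12, Mmp1b, Mmp3, Mmp1a, Mmp10, Mmp8, Mmp20 and Mmp7, with 1 other protein-coding gene, between Mmp8 and Mmp20. Their upstream sequences, from RefSeq, share letters that most genes lack, so 3 of them are shown beside 3 members outside the group that passed in both fits. Each line gives the last 100 bases before the annotated start site, 5′ to 3′ on the gene's strand. Capitals mark TGANTCA (the letters bound by AP-1 factors), TATAAA and GGGCGG (the GC box), each on either strand; adjoining matches run together.
Mmp13, chr9:7272414-7272513, plus strand: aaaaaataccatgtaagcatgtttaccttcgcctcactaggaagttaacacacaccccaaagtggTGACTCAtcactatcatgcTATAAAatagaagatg
Mmp3, chr9:7445722-7445821, plus strand: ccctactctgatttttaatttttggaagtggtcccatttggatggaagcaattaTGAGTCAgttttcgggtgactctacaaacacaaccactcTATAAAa
Mmp10, chr9:7502242-7502341, plus strand: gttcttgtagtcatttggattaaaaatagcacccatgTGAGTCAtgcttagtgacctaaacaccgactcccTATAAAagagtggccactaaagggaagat
Adamts1, chr16:85803114-85803213, minus strand: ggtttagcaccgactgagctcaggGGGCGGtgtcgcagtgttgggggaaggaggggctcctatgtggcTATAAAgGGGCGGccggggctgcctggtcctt
Timp1, chrX:20870066-20870165, plus strand: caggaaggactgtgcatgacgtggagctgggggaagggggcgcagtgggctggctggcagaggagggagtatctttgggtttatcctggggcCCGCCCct
Mmp14, chr14:54431498-54431597, plus strand: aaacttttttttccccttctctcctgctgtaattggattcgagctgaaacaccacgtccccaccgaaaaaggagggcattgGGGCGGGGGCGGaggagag

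Within 250 bases upstream, TGANTCA was found for 8 of the 9 neighbouring Mmp genes (88.9%), against 7.82% of the 27025 genes in the RefSeq table. TATAAA was found for 7 of the 9 (77.8%, against 14.3%) and GGGCGG for 0 of the 9 (against 35.4%). The 26 members outside the group that had a window showed the other picture, with TGANTCA for 3 (11.5%), TATAAA for 2 (7.69%) and GGGCGG for 16 (61.5%). The genes printed above all hold matches, which is not so for every gene of either group. Mmp8 had none of these runs of letters, and Mmp12 had no TATAAA. Outside the group Adam19, Adam1a and Mmp23 also passed in both fits, and none of them had GGGCGG. Of the 64 member genes, 35 had a window. A match is a run of letters and not a shown binding site, and neighbouring Mmp genes resemble one another in sequence.

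Of the neighbouring Mmp genes, none passed in both fits and several could not be tested. Whether the shared upstream letters bear on the ratios was not tested. Mmp3, a stromelysin that cuts many matrix proteins and activates other proteases, read 0.49, 0.96, 2.05 and 2.59, all positive, with a mean of 1.52 ± 0.97. It passed as higher with the orientation term (2.87-fold, limma adjusted p = 0.0042), but not without the term (0.0714) or without array 2 (0.0538). Mmp10, a stromelysin close to Mmp3, read -0.23, -0.03, -1.30 and -1.12, all negative, and passed as lower with the term alone (mean -0.67 ± 0.63, limma adjusted p = 0.00367, and 0.167 without the term). Mmp12, the macrophage elastase, had -0.54, -0.46, 0.36 and 0.10, and Mmp7, the epithelial matrilysin, had -0.51, -0.31, -0.31 and 0.65; neither passed (limma adjusted p = 0.128 and 0.63). Mmp8, a neutrophil collagenase, was below 0 on every array (-0.08, -0.13, -0.54 and -0.18) without passing (limma adjusted p = 0.0712). Of the others, Mmp13, the main collagenase of mouse cartilage and bone, had -2.93 and -1.18 on arrays 1 and 2, the floor on array 3 and no value on array 4. Mmp1b had 0.76 and -0.16 with the floor on array 4, Mmp20, the enamel protease, had -0.05 and -0.59 on arrays 1 and 2 alone, and Mmp1a had a single value of 1.14 on array 4.

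**Figure D2:**
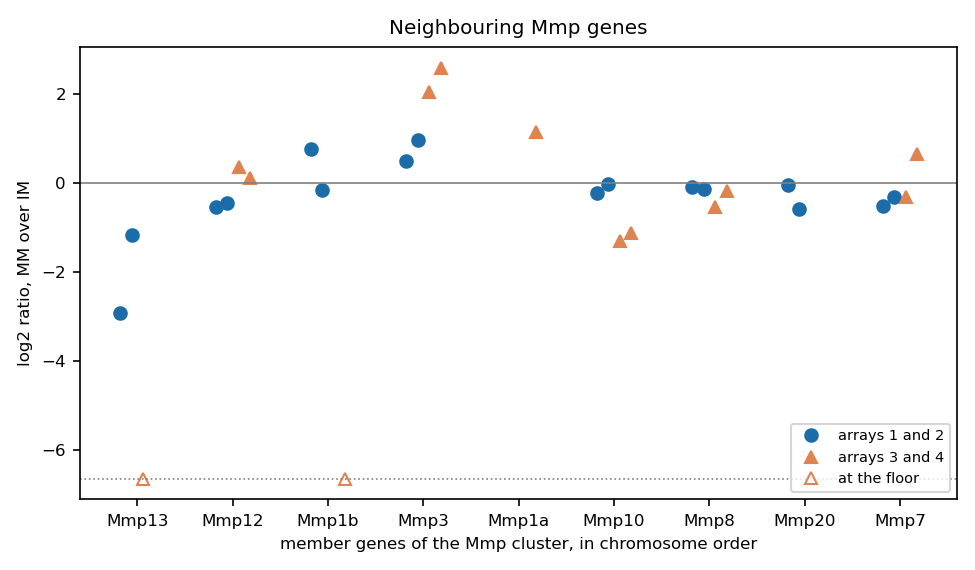
Log2 ratios of MM over IM (y axis) of the 9 neighbouring Mmp genes, placed from left to right in chromosome order. Circles are arrays 1 and 2, triangles are arrays 3 and 4, and open symbols on the dotted line are values at the floor of -6.64; Mmp3 is the only one of them with 4 positive values, and Mmp10 and Mmp8 are the only ones with 4 negative values above the floor.

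Active sheddases of the Adam family were split. Adam9, Adam19 and Adam8 were lower in MM on every array and passed in both fits. Adam9, a widely expressed sheddase, read -0.39, -0.37, -0.85 and -0.76, with a mean of -0.59 ± 0.25 (1.51-fold lower, limma adjusted p = 0.00138, and 0.0312 without the term). Adam19, known for its role in heart development, read -0.46, -0.45, -0.61 and -0.68, with a mean of -0.55 ± 0.11 (limma adjusted p = 0.00146, and 0.00923 without the term). Adam8, best known from leukocytes, read -0.60, -0.30, -0.61 and -0.53, with a mean of -0.51 ± 0.14 (limma adjusted p = 0.00845). With the orientation term, the call of Adam8 was lost without array 3 or array 4 (limma adjusted p = 0.0582 and 0.0518). In both fits the calls of Adam8 and Adam19 were lost without array 1, 3 or 4. That of Adam9 was lost whichever array was left out.

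Adam10, the sheddase that cleaves Notch receptors, was the opposite. It was positive on every array, at 0.37, 0.19, 0.73 and 0.78, and passed as higher with the orientation term (mean 0.52 ± 0.29, 1.43-fold, limma adjusted p = 0.00365) but missed the threshold without it (0.0573). Adam17, which releases tumour necrosis factor and ligands of the epidermal growth factor receptor, read -0.06, 0.16, 0.31 and 0.27 and did not pass (mean 0.17 ± 0.17, limma adjusted p = 0.056). It passed with floor values left out (0.0481), with arrays centred (0.0254), without array 1 (0.0334) and on arrays 3 and 4 alone (0.0277). Adam15 read 1.01 and 1.16 on arrays 1 and 2 but 0.02 and -0.10 on arrays 3 and 4, so its call as higher (limma adjusted p = 0.00351, and 0.273 without the term) came from one orientation. Adam12, a gene of embryonic muscle and mesenchyme, had 0.74 and 0.45, then -0.97 and -0.92, and did not pass (limma adjusted p = 0.0877). Of the remaining sheddases, Adam33 was slightly lower with the orientation term alone (mean -0.12 ± 0.12, limma adjusted p = 0.0342). That call was lost without array 3 or array 4 (0.145 and 0.132), with arrays centred (0.174) or scaled (0.0525) and with 3 or more values (0.0507). Adam28 had 2.70 and 0.49 on arrays 1 and 2 alone.

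Adam11, Adam22 and Adam23, neural proteins that lack protease activity, were lower or unsettled. Adam11 (-0.01, -0.16, -0.39 and -0.39) and 1 probe of Adam22 (-0.14, -0.15, -0.48 and -0.25) were lower with the orientation term alone. The call of Adam11 was lost without array 3 or array 4 (limma adjusted p = 0.0778 and 0.0782), and that of Adam22 without array 1, 2 or 3 (0.148, 0.151 and 0.0592). The other Adam22 probe had 0.92 and 2.05, no value and the floor, and Adam23 had 0.19, 0.24 and -0.75 on arrays 1, 2 and 4.

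Adam genes known mainly from the testis and epididymis were seldom measured on all arrays. Of the 14 such probes, 3 (21.4%) had 4 values above the floor, against 8 of the 9 sheddase probes and 58.1% of all probes. Adam1a was one of them, at -0.52, -0.79, -0.32 and -0.35, and passed as lower in both fits. Its mean was -0.50 ± 0.21 (limma adjusted p = 0.0068, and 0.0506 without array 4). Adam20 passed as lower with the orientation term alone (mean -0.20 ± 0.19, limma adjusted p = 0.0132), and the call was lost whichever array was left out (0.0528 to 0.0716). Adam30 changed sign between orientations (-0.62, -0.39, 0.73 and 1.66, limma adjusted p = 0.199).

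Of the other 11 testis and epididymis genes, 6 (54.5%) were positive and 3 negative on both of arrays 1 and 2. Their ratios on these arrays ran from -2.88 to 4.38. Among all probes without 4 values above the floor, 8270 had values on both of these arrays. Of those, 4194 (50.7%) were positive and 2404 negative on both, so the share of positive pairs was similar. Adam26a had 3.16 and 3.42, Adam4 had 3.94 and 1.86, and Adam7 had -2.88 and -0.08, each with the floor on arrays 3 and 4. The fit lists these 3 as lower, but no fold was measured. Adam24 had 1.69 and 4.38, Adam3 had 2.73 and -0.13 and Adam39 had -0.05 and -0.13, each with no value on array 3 and the floor on array 4. Adam5 (1.08 and 3.73), Adam25 (2.52 and 2.96), Adam21 (0.62 and 1.45) and Adam18 (-0.19 and -0.45) had values on arrays 1 and 2 alone, and Adam2 had 0.76, -0.91 and -0.44 on arrays 1 to 3. The median gap between arrays 1 and 2 was 1.67 for these 11 probes, against 0.09 for the 39 member probes with 4 values above the floor. Over all probes the gap was 0.50 for those with a value missing or at the floor and 0.10 for those without.

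**Figure D3:**
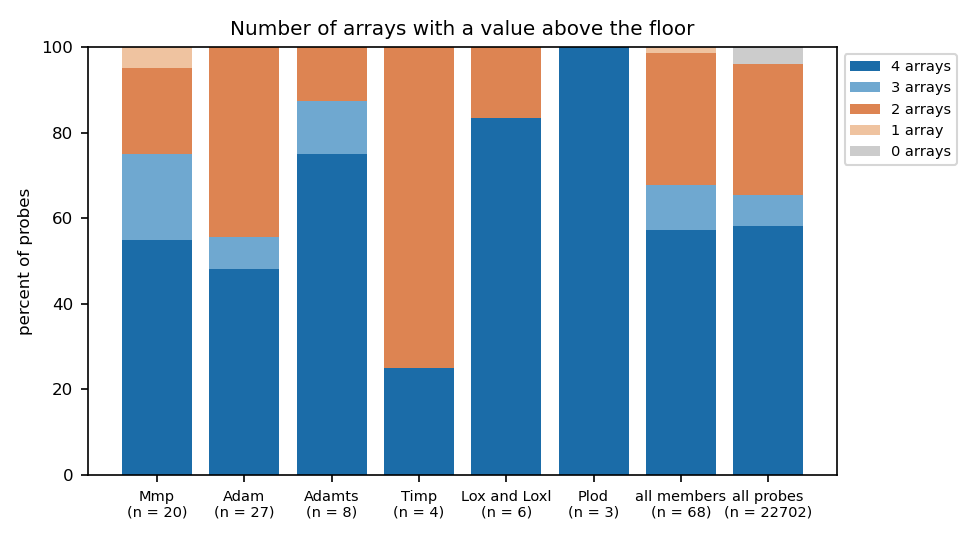
Share of probes, in percent (y axis), with a value above the floor on 4, 3, 2, 1 or 0 arrays, for each family, all 68 members and all 22702 probes. All 3 Plod probes and 1 of 4 Timp probes had 4 such values, and the members as a whole (57.4%) were close to all probes (58.1%).

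Both probes that passed as higher in both fits were of secreted Adamts proteases. Adamts1, a protease of versican and aggrecan whose loss in mice is known to disturb the urinary tract, read 1.62, 0.92, 1.45 and 1.32. All 4 arrays were well above 0, both orientations alike, and the mean of 1.33 ± 0.30 is 2.51-fold higher (SE 0.142, limma adjusted p = 0.00564, and 0.00747 without the term). Of the 13191 probes above the floor, 421 had a higher mean. Its call in both fits was lost without array 4. Adamts5, its neighbour on chromosome 16 and the main aggrecan protease of cartilage, read 0.48, 0.48, -0.14 and -0.16. It passed as higher with the term (limma adjusted p = 0.0128), not without it (0.536) and not without array 3 or array 4 (0.079 and 0.0719).

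The 2 probes of Adamts9, another versican protease, moved in opposite directions, and each did so on every array and in both fits. The probe annotated to AK007436 read 0.60, 0.58, 0.74 and 0.96, with a mean of 0.72 ± 0.17 (limma adjusted p = 0.00237). Its call in both fits was lost without array 1 or array 3. The one annotated to AK018421 read -0.36, -0.37, -0.44 and -0.40, with a mean of -0.39 ± 0.04 (limma adjusted p = 0.00232). Its call in both fits was lost whichever array was left out. No value of the 2 probes overlapped, so the gene has no single direction here. Which transcripts the probes read is not given by the annotation.

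Adamts3 and Adamts7 were lower only in the fit with the orientation term. Adamts3, which trims the ends of procollagens, read -0.93, -0.91, 0.05 and -0.11 (limma adjusted p = 0.00332, and 0.219 without the term), and Adamts7, a protease of cartilage oligomeric matrix protein, read 0.24, 0.14, -1.37 and -1.15 (0.00484, and 0.366 without the term). The call of Adamts7 was also lost without array 1 or array 2 (limma adjusted p = 0.0568 and 0.062). Adamts10 had 0.43, 0.08 and -0.72 on arrays 1, 2 and 4. Adamts8 had 3.43 and 0.97, no value and the floor. Over the 6 tested Adamts probes the median was -0.11, and it became 0.16 when the probes of a gene were averaged first.

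Many ratios of the members depended on channel orientation. The orientation term passed for 23 of the 42 tested probes (54.8%), against 44.6% of all tested probes. The sign was the same on 4 arrays, none at the floor, for 21 of the 42 (50%, against 48.9%), 4 positive and 17 negative. Over all tested probes 2979 were positive and 3958 negative in this way. In 7 of the 39 probes above the floor, arrays 1 and 2 were both positive and arrays 3 and 4 both negative. In 3 it was the other way round. Of all 13191 probes above the floor on 4 arrays, 1401 went the first way and 2586 the second. Across the 39 probes above the floor, Pearson's r was 0.945 between arrays 1 and 2, 0.944 between arrays 3 and 4, and 0.399 to 0.482 between orientations, against 0.113 to 0.274 across all probes. Probes of one array share its hybridisation and are not independent, and these values are a description.

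**Figure D4:**
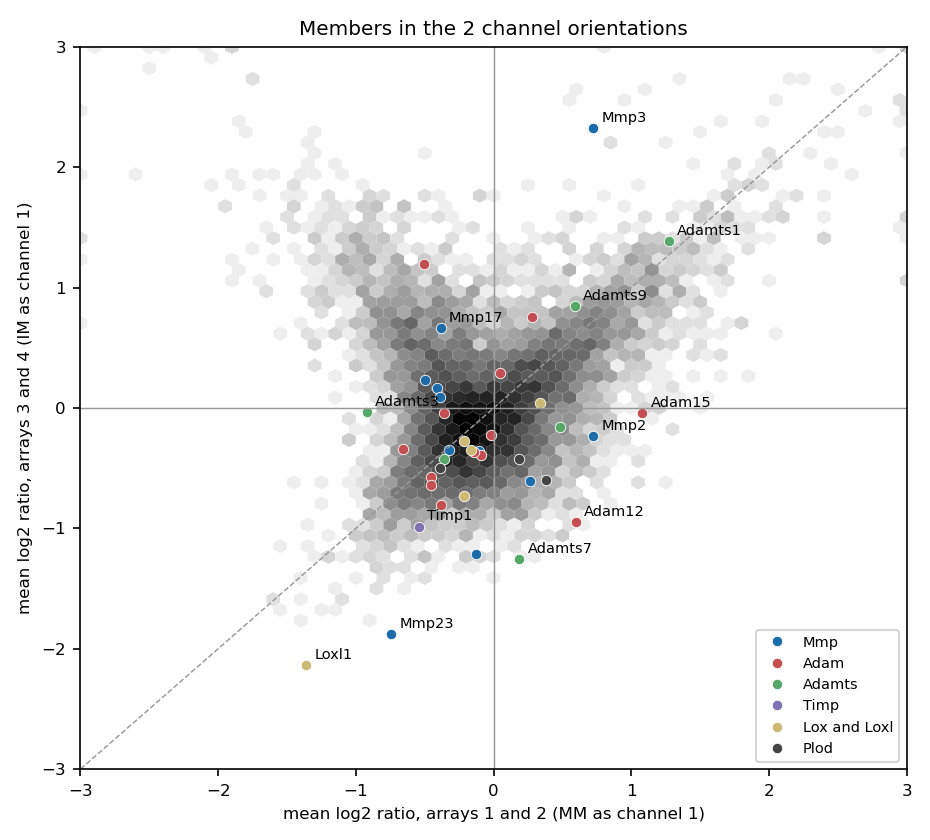
Mean log2 ratio of arrays 1 and 2 (x axis) against that of arrays 3 and 4 (y axis) for 39 member probes, coloured by family, over the density of all 13191 probes above the floor (grey, darker for more probes on a log scale, values beyond 3 drawn at the edge). Loxl1, Mmp23, Timp1, Adamts1 and Mmp3 fall in the quadrants where both orientations have the same sign, and Adam12, Adamts7 and Mmp2 fall where they differ.

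Other genes that act with these families went both ways. Bmp1, the protease that removes the C-terminal end of procollagens and activates lysyl oxidase, was higher in MM by its tested probe (1.84, 1.40, 1.16 and 1.17, mean 1.40, limma adjusted p = 0.00206). Its enhancer Pcolce was lower (-0.48, -0.42, -0.82 and -0.84, mean -0.64, adjusted p = 0.0011), while Pcolce2 was higher (mean 0.46, adjusted p = 0.0047). All 3 passed in both fits. Reck, a membrane inhibitor of several Mmp and Adam proteins, was lower on every array (-0.32, -0.29, -0.34 and -0.41, adjusted p = 0.00348).

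Among 11 tested probes for other inhibitors and activators, 2 were higher and 3 lower with the orientation term, 1 of the 3 at the floor, and 0 higher and 2 lower in both fits. Of 8 tested probes for collagen-modifying enzymes, 2 were higher and 4 lower, and 2 and 1 in both fits. The higher ones were P4ha1 (0.23) and P4hb (0.46), which form prolyl 4-hydroxylase, and the lower one in both fits was P3h3 (-0.57). Of 3 tested cathepsin probes, 1 was higher and 1 lower, and none passed in both fits. Among all tested probes 23.8% were higher and 38.1% lower with the orientation term, and 13.6% and 14.4% in both fits.

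Markers of other tissues that a dissection could include went in different directions. Muscle and somite markers were lower in MM for 8 of 9 tested probes, 1 of the 8 at the floor, and 6 were lower in both fits (median -1.17 over the 8 tested probes above the floor). Des, which encodes the muscle filament desmin, was the exception and was higher (0.97). Gonad and adrenal markers were lower for 4 of 4 (3 in both fits, median -1.49) and neural markers for 4 of 4 (4 in both fits, median -0.79). Nephric duct and epithelial markers were split, with 2 higher and 3 lower of 5 tested, and 1 and 2 in both fits. The epithelial gene Epcam was higher (1.87), while Cdh16 (-1.40) and Gata3 (-0.35) were lower. Endothelial markers were higher for 4 and lower for 2 of 8 (4 and 1 in both fits, median 0.20). Of 3 tested leukocyte probes, Cd68 was lower (-0.53), and the other two, 1 of them with a value at the floor, did not pass. For germ cells 1 of 5 probes was tested and was lower. Beside these counts, 23.8% of all tested probes were higher and 38.1% lower with the orientation term, and 13.6% and 14.4% in both fits. The part of these cells in the ratios of Loxl1, Mmp23, Timp1, Adamts1 or the other members was not tested.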

How the data were processed

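The values are log2 ratios of MM over IM, 1 per probe and array, deposited by the authors. Per the labels' protocols and the submitters' processing notes, Imagene 5.5 read the scans, arrays 3 and 4 had their channels turned round, lowess smoothing with a 20.0% window corrected the control signal, and no control signal was left below 10. Background removal is not given in the sources used here, nor is spot filtering. From the floor shared by all arrays came the base of the log2 values. Without intensities, brightness over background cannot be judged, and precision rests on having 4 arrays.

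All 14184 probes with 4 values were fitted with limma 3.58.1 in R 4.3.3, checked on simulated data. Alternatives were no orientation term, floor values left out, centring, scaling, array weights, 3 or more values, each array left out, and each orientation alone or averaged. Gene names came from the platform annotation. All 68 member probes matched the RefSeq table (GRCm38.p6) by gene ID, and 0 symbols differed. The text names every Timp, Lox, Loxl and Plod probe, every other member that passed in both fits, 18 genes fixed by role (of which Mmp15, Adamts2 and Adamts4 were not analysed here), genes with 2 probes and probes at the floor. The neighbouring Mmp genes and the other members were named after their values were seen. The members and lists were chosen with earlier results of these data known.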

Additional observations from a re-analysis of the deposited data

How the results depend on the processing

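With the orientation term 8 member probes were higher and 23 lower. These counts were 2 and 12 without the term, 0 and 0 with each orientation averaged (2 and 1 at an unadjusted p under 0.05), 5 to 8 and 16 to 21 with 1 array left out, and 12 lower on arrays 1 and 2 alone. In both fits, leaving out 1 array gave 1 to 2 higher and 0 to 3 lower, against 2 and 12. Fewer arrays leave fewer degrees of freedom. Adam1a, Adam9, Loxl4, Mmp14, Mmp23, Plod2, Timp1 and the lower probes of Loxl2 and Adamts9 lost these calls whichever array was left out. All 14 such calls were kept with floor values left out or with array weights, 13 with arrays scaled (Adam1a lost), 11 with 3 or more values (Adam1a, Mmp23 and the lower Loxl2 probe lost) and 10 with arrays centred (Adam9, Mmp23, Loxl4 and that Loxl2 probe lost). Signs of called probes turned within an orientation: on arrays 3 and 4 alone Adam15 was -0.041, Adamts5 -0.15 and Mmp2 -0.24, and on arrays 1 and 2 alone Adam26a was 3.29, Adam4 2.90 and Adamts7 0.19; the cause was not tested.

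Family medians moved by more than the spread between arrays in these cases. The Mmp median of -0.15 was -0.14 to -0.27 with 1 array left out, -0.33 on arrays 1 and 2 and -0.24 on arrays 3 and 4. The Adamts median of -0.11 was 0.33 on arrays 1 and 2 and 0.16 by gene. The Lox and Loxl median of -0.26 was -0.35 on arrays 3 and 4, -0.36 by gene and -0.36 with 3 or more values. The Plod median of -0.12 was -0.50 on arrays 3 and 4. On arrays 1 and 2 it was 0.19, of the other sign but within that spread. The Timp value of -0.76 was -2.49 with 3 or more values, where 2 of 3 probes hold a floor value. No paired analysis was possible because the arrays form 1 group, with no replicate numbers shared between groups; each ratio already sets the tissues of 1 array against each other.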
